A study of Mus musculus with 6 samples.

Results

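Hox genes encode homeodomain transcription factors and lie in 4 clusters, Hoxa on chromosome 6, Hoxb on chromosome 11, Hoxc on chromosome 15 and Hoxd on chromosome 2. The members described here are the genes of these clusters that a probe set of the array names alone, with no second gene symbol. Of 39 Hox genes in the RefSeq gene table, 33 had such a probe set, out of 18193 genes named in this way on the array. Their 48 probe sets were reduced to 1 a gene, the one with the highest mean over the 6 arrays. Hox genes without such a probe set were not analysed here. Hoxb8 and Hoxd4 appear on the array through probe sets shared with Hoxb7 and Hoxd3.

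The arrays were hybridised with RNA from cells labelled as mouse T-cell progenitors derived from embryonic stem cells, 3 arrays for Gata3+/- and 3 for Gata3-/-. Gata3 encodes a transcription factor required early in T-cell development, and neither genotype keeps both of its copies. No wild-type cells are among the groups. Both genotypes were differentiated on OP9 and OP9-DL1 stromal cells, the latter presenting a Notch ligand, with the cytokines Flt3L and IL-7, and were sorted. Levels are log2 GC-RMA intensities, and every difference is Gata3-/- minus Gata3+/-. The labels call the arrays biological replicates but name no separate culture or stem cell clone, so the spread behind each p-value is that of these arrays alone.

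A probe set was counted as measured from a log2 value of 4, the minimum in what follows. The cells carried markers of several types, each array measuring a sorted population as a whole, so that fewer cells of a type and less RNA per cell cannot be told apart. Of 21 T-lineage markers 15 never reached the minimum, Cd3e and Bcl11b among them. The other 6, Lat, Cd5, Cd7, Cd28, Tox and Gata3, were tested, so the markers do not settle the labelled cell type. All 16 monocyte, macrophage and dendritic cell markers were tested, 8 of 10 multipotent progenitor markers and 1 of 8 markers of undifferentiated stem cells. So were 8 of 9 erythroid and megakaryocyte markers, among them Hbb-bh1 and Pf4, and 6 of 7 endothelial markers. The Gata3 probe set stood at 5.88 ± 0.50 and 5.93 ± 0.48 and does not check the genotypes, because no label says which of its exons were disrupted. Between 19977 and 20124 probe sets reached the minimum on each array.

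Along a cluster, genes with low paralogue numbers are used further forward in the embryo and genes with high numbers further back. In adult bone marrow, stem and progenitor cells express many genes of the Hoxa and Hoxb clusters, and expression falls as the cells mature. Hoxa9, Hoxa10 and Hoxb4 are known for promoting the self-renewal and expansion of such progenitors. HOX proteins bind DNA together with the TALE homeodomain proteins PBX and MEIS. The MLL histone methyltransferase complex keeps Hox genes active, and Polycomb complexes keep them silent.

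Nearly the whole family was under the minimum of log2 4. It was reached on at least 3 of the 6 arrays by 1 of the 33 Hox genes (3.03%), against 56.6% of all 18193 genes. The other 32 never reached it on any array, whereas 41.7% of all genes never did. Hoxa5 was the gene that did, on all 6 arrays. Means of the other 32 lay between 1.75 for Hoxb2 and 3.27 for Hoxc6, and no single value of the probe sets chosen for them exceeded 3.61. Low GC-RMA values form a floor set by the probes, so these levels have no order and are read only against the minimum. A value at the floor does not show that a transcript is absent.

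For 3 of these genes the reference sequence just around the transcription start is shown as an example. Hoxa5 is the gene above the minimum, and Hoxa9 and Hoxb4 are regulators of blood progenitors that stayed under it. Each run covers 250 bases before to 50 bases after the start (RefSeq, GRCm38.p6), written along the strand of the gene, and capitals mark each CG dinucleotide, the site of DNA methylation. They lie at chr6:52204538-52204837 (minus strand), chr6:52227321-52227620 (minus strand) and chr11:96318017-96318316 (plus strand).
Hoxa5: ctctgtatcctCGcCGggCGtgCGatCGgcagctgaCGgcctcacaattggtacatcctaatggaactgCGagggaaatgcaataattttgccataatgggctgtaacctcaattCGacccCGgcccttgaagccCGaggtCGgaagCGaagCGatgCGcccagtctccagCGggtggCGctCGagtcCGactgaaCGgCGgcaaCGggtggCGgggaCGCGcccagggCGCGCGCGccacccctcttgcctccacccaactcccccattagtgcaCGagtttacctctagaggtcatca
Hoxa9: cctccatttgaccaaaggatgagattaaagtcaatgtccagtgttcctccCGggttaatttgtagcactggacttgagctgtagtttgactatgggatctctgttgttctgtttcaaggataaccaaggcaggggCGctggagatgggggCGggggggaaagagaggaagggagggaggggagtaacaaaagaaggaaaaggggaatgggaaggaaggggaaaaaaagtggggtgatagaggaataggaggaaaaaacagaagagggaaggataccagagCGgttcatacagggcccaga
Hoxb4: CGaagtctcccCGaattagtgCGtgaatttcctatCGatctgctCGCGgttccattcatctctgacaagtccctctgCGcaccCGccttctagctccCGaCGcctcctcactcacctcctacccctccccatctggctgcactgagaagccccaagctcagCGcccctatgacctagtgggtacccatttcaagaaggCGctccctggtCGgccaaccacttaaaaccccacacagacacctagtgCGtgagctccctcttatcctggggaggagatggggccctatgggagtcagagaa

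The Hoxa5 window holds 29 CG dinucleotides, that of Hoxb4 14 and that of Hoxa9 4. These counts show no relation to level, since Hoxa13, Hoxd13 and Hoxd1 never reached the minimum and their windows hold 45, 37 and 29. RefSeq windows were found for 19 of the 33 genes, 21 windows in all since Hoxa10 and Hoxd11 have 2 each. Their median was 15 CG dinucleotides, with a range from 4 to 45, and 71.4% of them held at least 10. Over all 32841 windows of the same length the median was 7 and 43.5% held at least 10. The TATA sequence TATAAA, searched on both strands, was in 2 of the 21 windows (9.52%) and in 13.6% of all windows. The joint PBX and HOX recognition sequence TGATNNAT, searched on both strands, was in 3 of the 21 (14.3%), at Hoxa2, Hoxb1 and Hoxd11, and in 8.85% of all windows. These are descriptions of letters in a window, and neither methylation nor binding was measured.

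**Figure D1:**
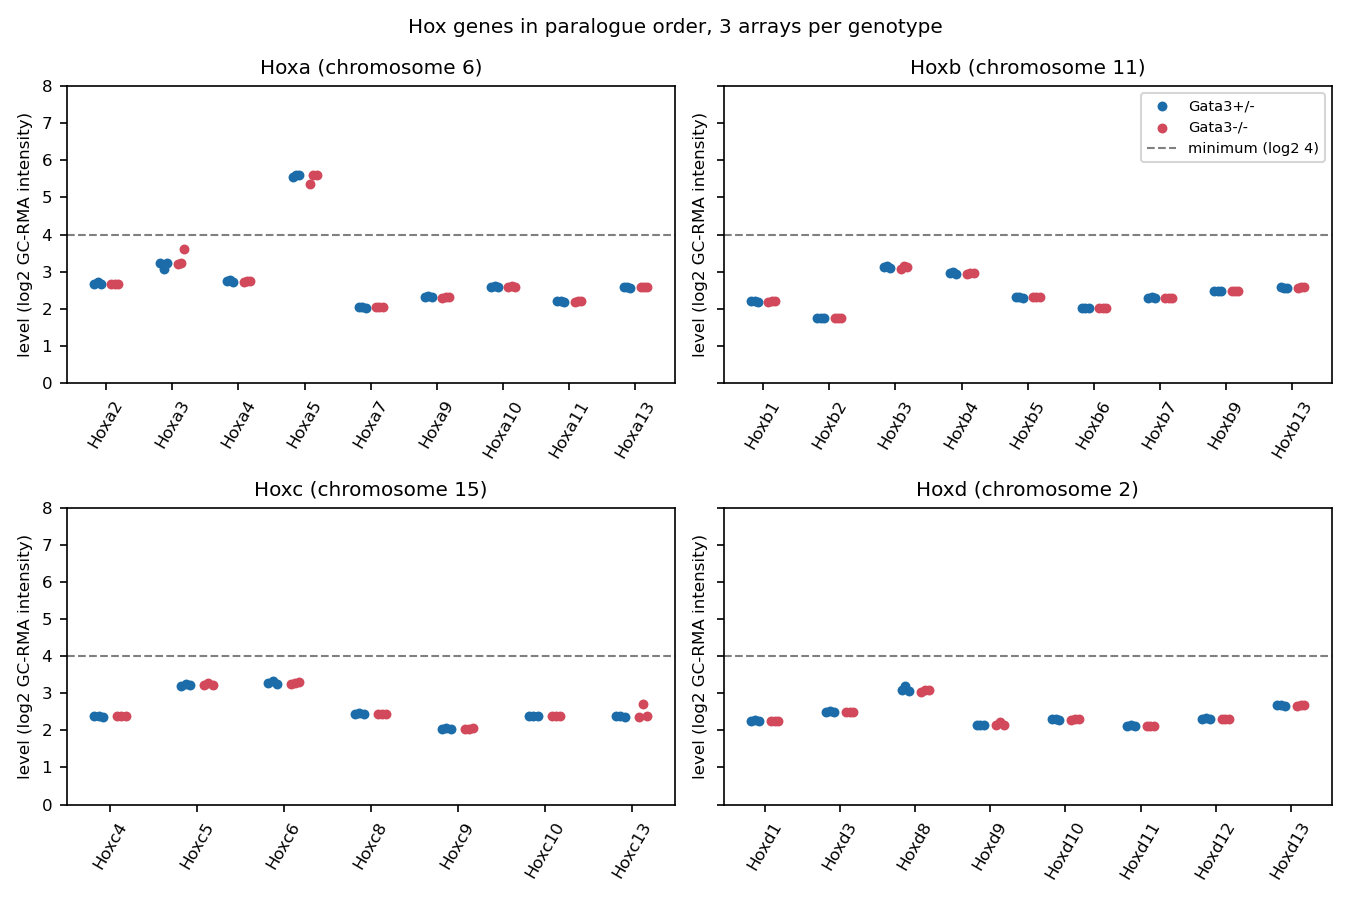
Level (log2 GC-RMA intensity) of each of the 33 Hox genes in paralogue order, 1 panel a cluster. Points are single arrays, blue for Gata3+/- and red for Gata3-/-, and the dashed line is the minimum of log2 4, above which only Hoxa5 lies, on all 6 arrays.

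In the Hoxa cluster the array named 9 genes, from Hoxa2 to Hoxa13, and 8 never reached the minimum. Hoxa9, the member most often tied to progenitor self-renewal and leukaemia, stood at 2.32, 2.34 and 2.31 on the Gata3+/- arrays and at 2.30, 2.32 and 2.32 on the Gata3-/- arrays. The groups overlapped and all 6 values were at the floor. Hoxa10, its neighbour, stood between 2.59 and 2.62. Hoxa7, which lies between Hoxa5 and Hoxa9 among the genes named, stood between 2.03 and 2.04.

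Hoxa5, a homeodomain factor of axial and lung development that is also expressed in blood progenitors, stood at 5.54, 5.59 and 5.60 on the Gata3+/- arrays and at 5.37, 5.59 and 5.59 on the Gata3-/- arrays. The lowest value came from Gata3-/- replicate 1 and the groups overlapped. The means were 5.58 ± 0.03 and 5.51 ± 0.13 (SD, n = 3 each). The difference was -0.06 (SE 0.09, 95% interval from -0.28 to 0.15) and did not pass in limma (adjusted p = 0.72), with a sign that turned to 0.01 without Gata3-/- replicate 1. So 0 of the 1 Hox gene tested was called in limma, and 0 had an unadjusted p under 0.05. Of all 10302 genes tested 5.27% were called (2.86% higher and 2.41% lower in Gata3-/- arrays), and of all probe sets tested 4.37% were (2.25% higher and 2.12% lower). With no filter on low values limma called 0 of 33, with 0 at an unadjusted p under 0.05. Of these, 32 never reached the minimum, and neither a difference nor its absence can be read there.

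The level of Hoxa5 rests on 1 of its 2 probe sets. The one above the minimum has the suffix _x_at, which Affymetrix gives to probe sets whose probes can also match other sequences, and the annotation gives it no transcript accession. The other, which the annotation ties to a transcript accession, stood at 3.20, 2.54 and 2.53 on the Gata3+/- arrays and at 2.53, 2.38 and 3.58 on the Gata3-/- arrays. It stayed under the minimum on all 6 arrays. The 2 Hoxa5 probe sets therefore disagree on whether the transcript was measurable, and what the brighter one detects was not tested. Over the whole array 58.7% of the 2441 probe sets with that suffix reached the minimum on at least 3 arrays. The share was 38.7% of the 36082 with the plain suffix _at, 73.1% of those with _a_at and 71.1% of those with _s_at. Of the 48 Hox probe sets 3 carry the suffix _x_at, and those other than the Hoxa5 set, of Hoxa4 and Hoxc6, were at the floor.

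Hoxa3, an anterior Hox gene needed for the thymus and parathyroid, was the member that varied most among the 32 under the minimum. Its brightest probe set stood at 3.24, 3.06 and 3.22 on the Gata3+/- arrays and at 3.21, 3.22 and 3.61 on the Gata3-/- arrays. The high value was that of Gata3-/- replicate 3, the array on which the second Hoxa5 probe set was also highest. Another Hoxa3 probe set, with the suffix _s_at given to sets whose probes match several transcripts, ranged from 2.67 on Gata3-/- replicate 1 to 3.74 on Gata3+/- replicate 3. Its order over the arrays was not that of the first. The 2 remaining Hoxa3 probe sets stayed between 1.95 and 2.21.

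None of the 9 Hoxb genes named on the array, from Hoxb1 to Hoxb13, reached the minimum. Hoxb4, known for expanding blood stem cells in culture when overexpressed, stood at 2.96, 2.98 and 2.95 on the Gata3+/- arrays and at 2.95, 2.97 and 2.96 on the Gata3-/- arrays, which overlapped. Its second probe set stood between 2.50 and 2.68. Hoxb3, which like Hoxb4 is expressed in bone marrow progenitors, stood between 3.08 and 3.15, and the highest single value in the cluster was this 3.15. The probe set shared by Hoxb7 and Hoxb8 and that of the antisense transcript Hoxb5os were under the minimum as well.

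None of 7 Hoxc and none of 8 Hoxd genes reached it either. Hoxc4, a Hox gene expressed in lymphoid cells, stood between 2.37 and 2.39. Hoxc13, a hair follicle regulator at the end of its cluster, stood between 2.37 and 2.39 on 5 arrays and at 2.70 on Gata3-/- replicate 2. In the Hoxd cluster the highest single value was 3.20, for Hoxd8 on Gata3+/- replicate 2. The limb regulators Hoxd10 to Hoxd13 stayed between 2.11 and 2.68. The 8 other probe sets that name a Hox gene, 5 for antisense transcripts and 3 shared by 2 Hox genes, were under the minimum on every array, with no value above 2.55.

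Across arrays the 32 genes under the minimum hardly moved. In 25 of them the highest and lowest of the 6 arrays differed by at most 0.05, and in 2, Hoxa3 and Hoxc13, by more than 0.2. Their differences between the genotypes lay between -0.05 and 0.17, with a median of 0.00. The median of the 32 ran from 2.376 on Gata3+/- replicate 3 to 2.415 on Gata3-/- replicate 2. The median of all probe sets that never reached the minimum ran from 2.374 to 2.397 over the same arrays.

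Genes with high levels lay close to every cluster. Around each cluster the 5 nearest tested genes on either side were taken from the gene order of the RefSeq table, passing over genes that were not tested. Mean levels of the 10 neighbours ran from 4.77 to 14.32 at Hoxa, from 6.61 to 12.61 at Hoxb, from 4.10 to 13.31 at Hoxc and from 4.99 to 14.36 at Hoxd. On chromosome 6 Skap2, a signalling adaptor of leukocytes and the nearest tested gene on the side of the low paralogue numbers, had levels of 12.93 ± 0.03 for Gata3+/- and 12.80 ± 0.09 for Gata3-/- (mean ± SD, n = 3 each, an order kept below). Beyond Hoxa13 the nearest was Hibadh, an enzyme of valine breakdown, at 10.31 ± 0.13 and 10.19 ± 0.04. On chromosome 15 Smug1, a DNA repair enzyme, lay next to Hoxc4 at 6.96 ± 0.17 and 7.10 ± 0.06, and on chromosome 2 Mtx2, a mitochondrial import protein, lay next to Hoxd1 between 10.93 and 11.11 on the 6 arrays. The neighbours are above the minimum by choice, and the homeobox genes Evx1 and Evx2 were among those passed over beside the Hoxa and Hoxd clusters.

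**Figure D2:**
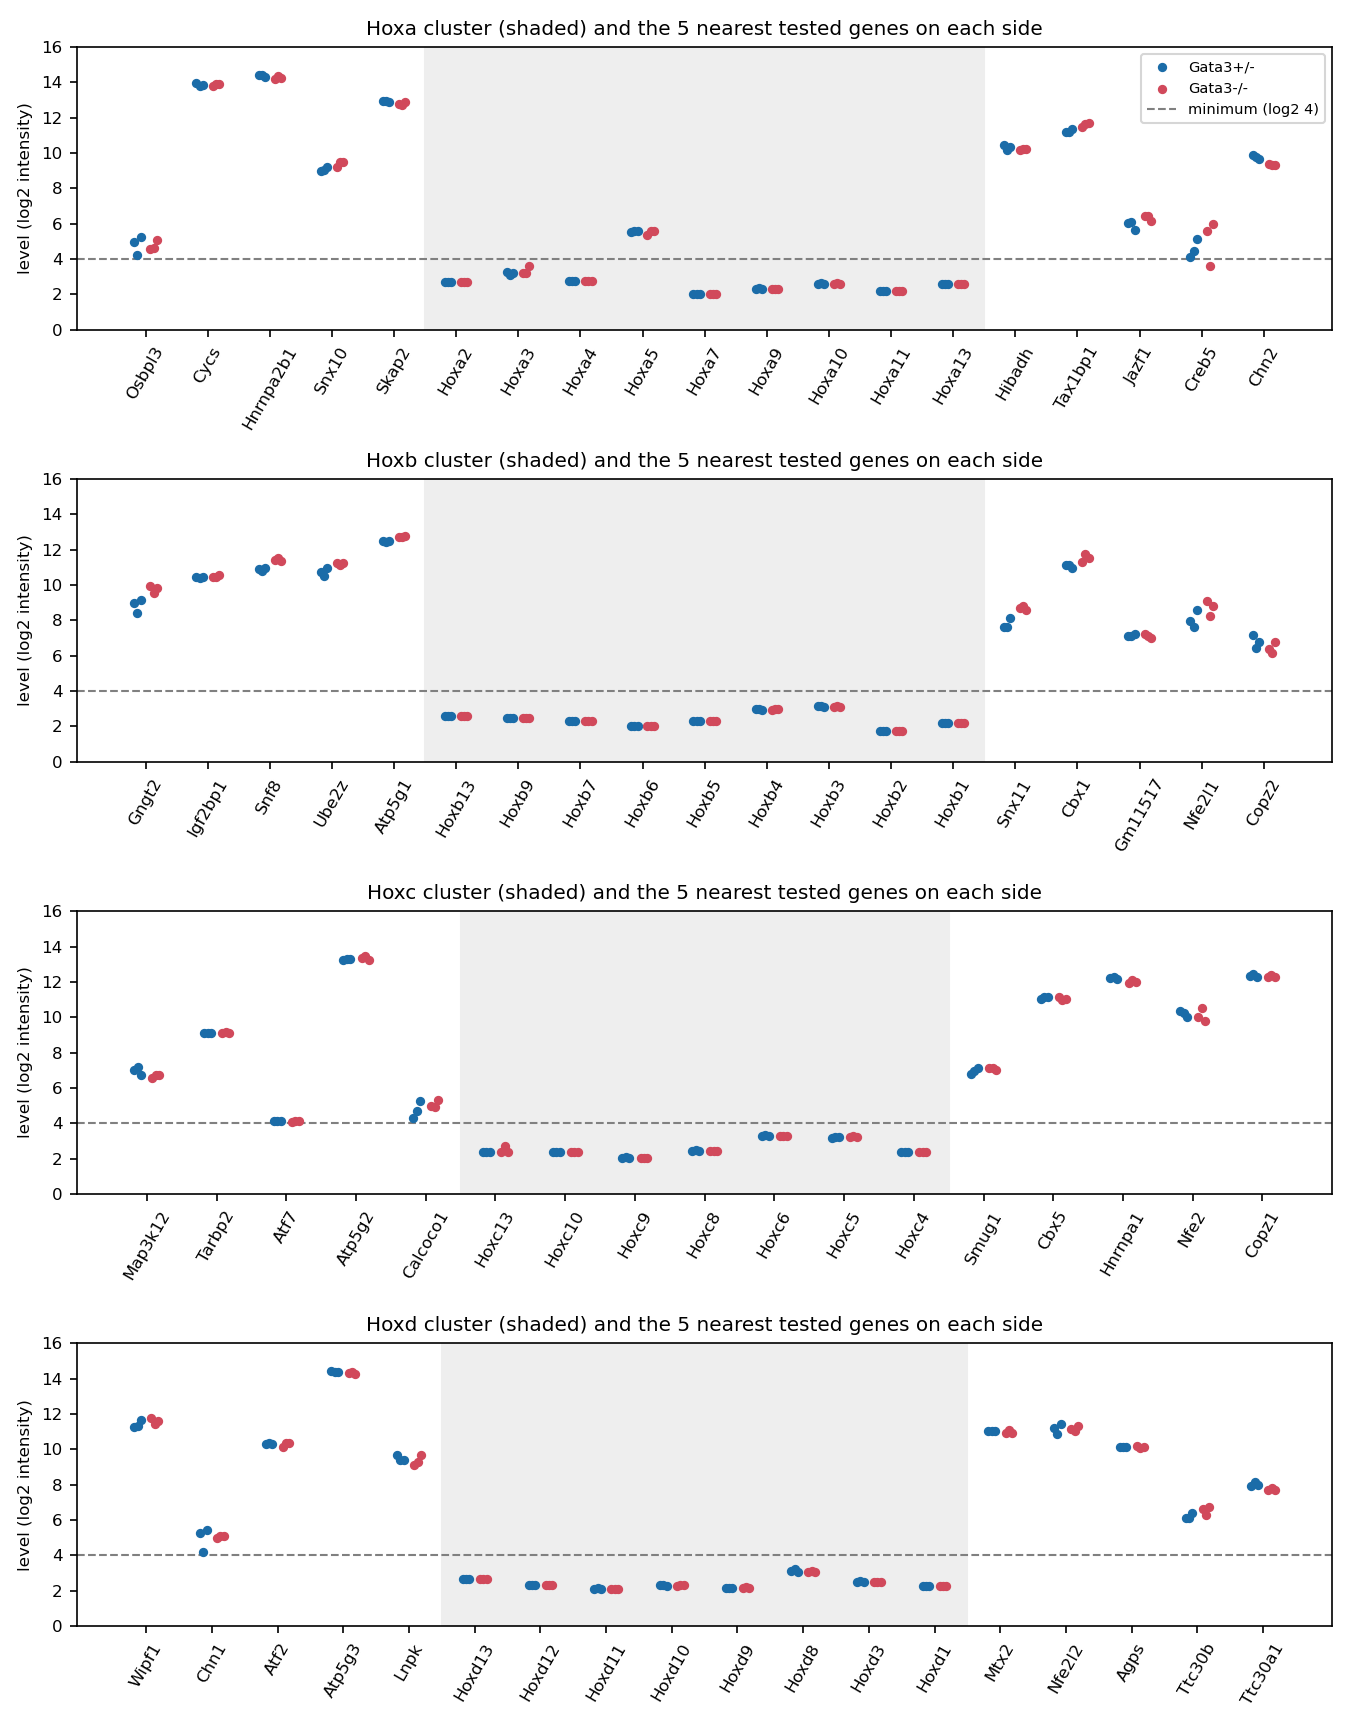
Level (log2 GC-RMA intensity) of the Hox genes (shaded) and of the 5 nearest tested genes on each side, in their order along the chromosome, with 3 arrays a genotype (blue Gata3+/-, red Gata3-/-). All Hox genes but Hoxa5 lie under the dashed minimum of log2 4, while the neighbours of each cluster lie above it in the mean.

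Between the genotypes, 2 of these 40 neighbours passed, both beside the Hoxb cluster and both higher in Gata3-/- arrays. Against this stand the 5.27% of all genes tested that were called. Snf8, a subunit of the ESCRT machinery that sorts membrane proteins, stood at 10.93, 10.82 and 10.96 in Gata3+/- and at 11.44, 11.52 and 11.36 in Gata3-/- arrays, a rise of 0.54 (SE 0.08, limma adjusted p = 0.0356). Snx11, a sorting nexin of endosomes, stood at 7.64, 7.60 and 8.13 and at 8.71, 8.80 and 8.58, a rise of 0.91 (SE 0.16, adjusted p = 0.0459). In both genes the genotypes did not overlap, but neither did they in Skap2, with a difference of -0.13 (limma adjusted p = 0.372). How many of all genes separate in this way was not counted, so separation is given here and below only as a description. With any 1 array left out limma called no more than 7 of all probe sets and neither of these, while the differences stayed between 0.50 and 0.58 for Snf8 and between 0.81 and 1.08 for Snx11.

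The 10 genes around Hoxb had a median difference of 0.47, 8 of them positive, and 6 had an unadjusted p under 0.05, as did 25.8% of all genes tested. The same count was 4 around Hoxa, 1 around Hoxc and 1 around Hoxd, where the medians were -0.03, -0.03 and 0.00. Over the whole of chromosome 11 the median of 889 tested genes was 0.33, with 94 called higher and 2 lower. On chromosome 6 the median of 516 genes was 0.00, with 35 called higher and 8 lower. The medians of chromosomes 2 and 15 were -0.04 and -0.03, with 14 higher and 13 lower on the former and 6 higher and 4 lower on the latter. Whether the neighbours of Hoxb differ for the same reason as the rest of chromosome 11 was not tested. The Hoxb genes themselves were at the floor in both genotypes, where a difference cannot be read.

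Most of the listed TALE cofactors of HOX proteins and related genes, the latter including Pbxip1, were tested (72.7%, against 56.6% of all genes). Of 11 TALE cofactors and related genes named on the array 8 were tested, and Pbx4 and Pknox2 never reached the minimum. None of the 8 passed in limma, where 5.27% of all genes tested did, and 3 had an unadjusted p under 0.05, where 25.8% of all genes did. The median difference was -0.03, against -0.02 over all 10302 genes tested. With array weights, a limma fit that called 2075 of all 20102 probe sets, 1 of the 8 was called, Pbx3 (adjusted p = 0.0301). Averaged over its tested probe sets, Pbx3 had a difference of -0.18 (limma adjusted p = 0.312). In that fit 1 of the 8 had an unadjusted p under 0.05.

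Meis1, the cofactor that acts with HOXA9 in leukaemia and is needed by blood stem cells, stood at 10.55, 10.50 and 10.38 in Gata3+/- and at 10.88, 11.33 and 10.87 in Gata3-/- arrays. The Gata3-/- values were all above the Gata3+/- values. The difference was 0.55 (SE 0.15, 95% interval from 0.19 to 0.92) and did not pass (adjusted p = 0.0946). Meis1 lies on chromosome 11, whose genes had a median difference of 0.33.

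Pbx3, a PBX protein found with Hoxa9 and Meis1 in leukaemia, stood at 9.13, 9.19 and 9.12 in Gata3+/- and at 8.76, 8.89 and 8.70 in Gata3-/- arrays. These groups did not overlap either, in the opposite direction, with a difference of -0.36 (SE 0.08, adjusted p = 0.0648). Pknox1, the MEIS relative PREP1, had a difference of -0.28 (adjusted p = 0.146), with Gata3+/- arrays all higher. Pbxip1, an inhibitor of PBX proteins, had one of 0.46 (adjusted p = 0.22), and its groups overlapped.

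Meis2, a close relative of Meis1, behaved differently over the arrays. It stood at 6.22, 3.31 and 5.66 in Gata3+/- and at 4.12, 4.19 and 5.98 in Gata3-/- arrays, with a difference of -0.30 (SE 0.90). Prrx1, a homeobox gene of mesenchyme outside the Hox clusters, stood at 9.85, 6.66 and 9.61 and at 8.19, 5.73 and 9.75. Both were high on Gata3+/- replicates 1 and 3 and on Gata3-/- replicate 3. The mean level of the 22 tested of 26 stromal and mesenchymal markers, a list that includes Prrx1, was 9.58, 7.72 and 9.58 in Gata3+/- and 8.42, 7.23 and 9.50 in Gata3-/- arrays. Thy1, Lum and Dcn, 3 of these markers, never reached the minimum. The same 32 of the 33 Hox genes were under the minimum on every array, whatever its stromal marker signal, so their levels cannot test the part of stroma. Whether stromal cells account for the spread of Meis2 and Prrx1 was not tested.

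**Figure D3:**
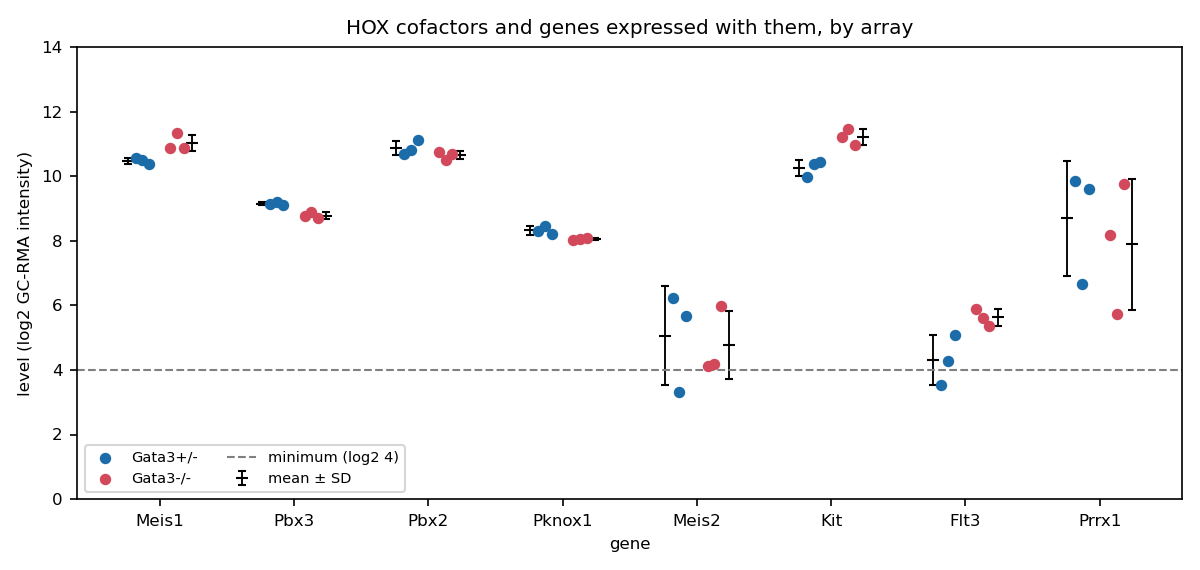
Level (log2 GC-RMA intensity) on each array of 5 TALE cofactors, of Kit and Flt3, and of the mesenchymal homeobox gene Prrx1, blue for Gata3+/- and red for Gata3-/-, with the mean ± SD of 3 arrays in black beside each group. The values of Meis1 and Pbx3 do not overlap between the genotypes, in opposite directions, but neither difference passed in limma. Meis2 and Prrx1 spread widely within both genotypes.

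Genes listed as activators of Hox transcription were mostly measured, a list that also takes in Ctcf and the retinoic acid enzymes Cyp26a1 and Aldh1a2. Of 28 genes of the MLL complex, of the elongation factors that work with it and of the Cdx and retinoic acid inputs, 23 were tested. The 5 that never reached the minimum were Cdx1, Cdx2 and Cdx4, homeobox factors that switch on Hox genes in the embryo, with Rarb, a retinoic acid receptor, and Cyp26a1, which degrades retinoic acid. Kmt2a, the MLL1 methyltransferase itself, stood at 6.64 ± 0.27 and 6.96 ± 0.46, its partner Men1 at 9.33 ± 0.02 and 9.45 ± 0.16, and the H3K79 methyltransferase Dot1l at 7.33 ± 0.17 and 7.39 ± 0.18. None of the 23 passed in limma and 4 had an unadjusted p under 0.05, beside 5.27% and 25.8% of all genes tested. The median difference was 0.03. With array weights, where 2075 of all 20102 probe sets were called, 3 of the 23 were, Kdm6b, Rara and Aff1.

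The 2 activators with the smallest p lie on chromosome 11. Rara, the retinoic acid receptor of myeloid cells, stood at 5.60, 4.45 and 6.06 in Gata3+/- and at 7.66, 6.79 and 7.33 in Gata3-/- arrays, a difference of 1.89 (SE 0.46, adjusted p = 0.0773). Kdm6b, a demethylase that removes the Polycomb mark from histone H3, stood at 8.90, 8.96 and 9.10 and at 10.27, 9.73 and 9.60, a difference of 0.88 (SE 0.19, adjusted p = 0.0619). Their groups did not overlap. Aff1, a scaffold of the super elongation complex on chromosome 5, had a difference of 0.37 (adjusted p = 0.134), and Kat7, a histone acetyltransferase on chromosome 11, one of 0.19 (adjusted p = 0.21).

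Polycomb genes were likewise expressed. Of 25 named on the array 22 were tested, while Pcgf2 and Cbx7 never reached the minimum and Phf19 did so on too few arrays. The core of the repressive complex PRC2 was measured in both genotypes, with Ezh2 at 10.40 ± 0.08 and 10.27 ± 0.20, Eed at 11.98 ± 0.08 and 11.97 ± 0.01 and Suz12 at 11.68 ± 0.02 and 12.04 ± 0.13. Bmi1, a PRC1 component that blood stem cells need, stood at 10.45 ± 0.05 and 10.39 ± 0.16. Of the 22, 1 passed and 7 had an unadjusted p under 0.05, beside the 5.27% and 25.8% of all genes tested. The median difference was 0.01. With array weights, where 2075 of all 20102 probe sets were called, 4 of the 22 were, Pcgf1, Ezh1, Cbx2 and Aebp2.

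The Polycomb gene that passed in the main fit was Pcgf1, a PRC1 subunit that works with Kdm2b at CG-rich promoters. It stood at 6.82, 6.58 and 6.77 in Gata3+/- and at 7.34, 7.58 and 7.45 in Gata3-/- arrays, a rise of 0.73 (SE 0.10, limma adjusted p = 0.0346) with no overlap. With any 1 array left out it was not called, and its difference stayed between 0.66 and 0.79. Kdm2b itself stood at 12.08 ± 0.13 and 11.79 ± 0.06, with a difference of -0.29 (adjusted p = 0.133). Differences that did not pass were 0.97 for Cbx2 (adjusted p = 0.0798), which reads the PRC2 mark, 0.75 for Ezh1, the second PRC2 methyltransferase (adjusted p = 0.0715), and 0.36 for Suz12 (adjusted p = 0.0798). In each of these 3 the Gata3-/- values were all higher, a separation whose share over all genes was not counted. Averaged over its tested probe sets, Suz12 had a difference of 0.22 (limma adjusted p = 0.198). Cbx6, a PRC1 subunit of the same family as Cbx2, had a difference of -0.56 (adjusted p = 0.0817).

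The 4 tested Polycomb genes on chromosome 11, Ezh1, Suz12, Cbx2 and Cbx8, were all positive with a median of 0.55, and so were the 4 tested activators there, Aff4, Kat7, Kdm6b and Rara, with a median of 0.55. On the chromosomes other than 6 and 11 the median was -0.05 for 14 Polycomb genes and -0.05 for 18 activators. Pcgf1 and Aebp2, a PRC2 accessory protein with a difference of 0.45 (adjusted p = 0.0844), lie on chromosome 6. The split by chromosome was made after the values were seen and is given without a test.

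**Figure D4:**
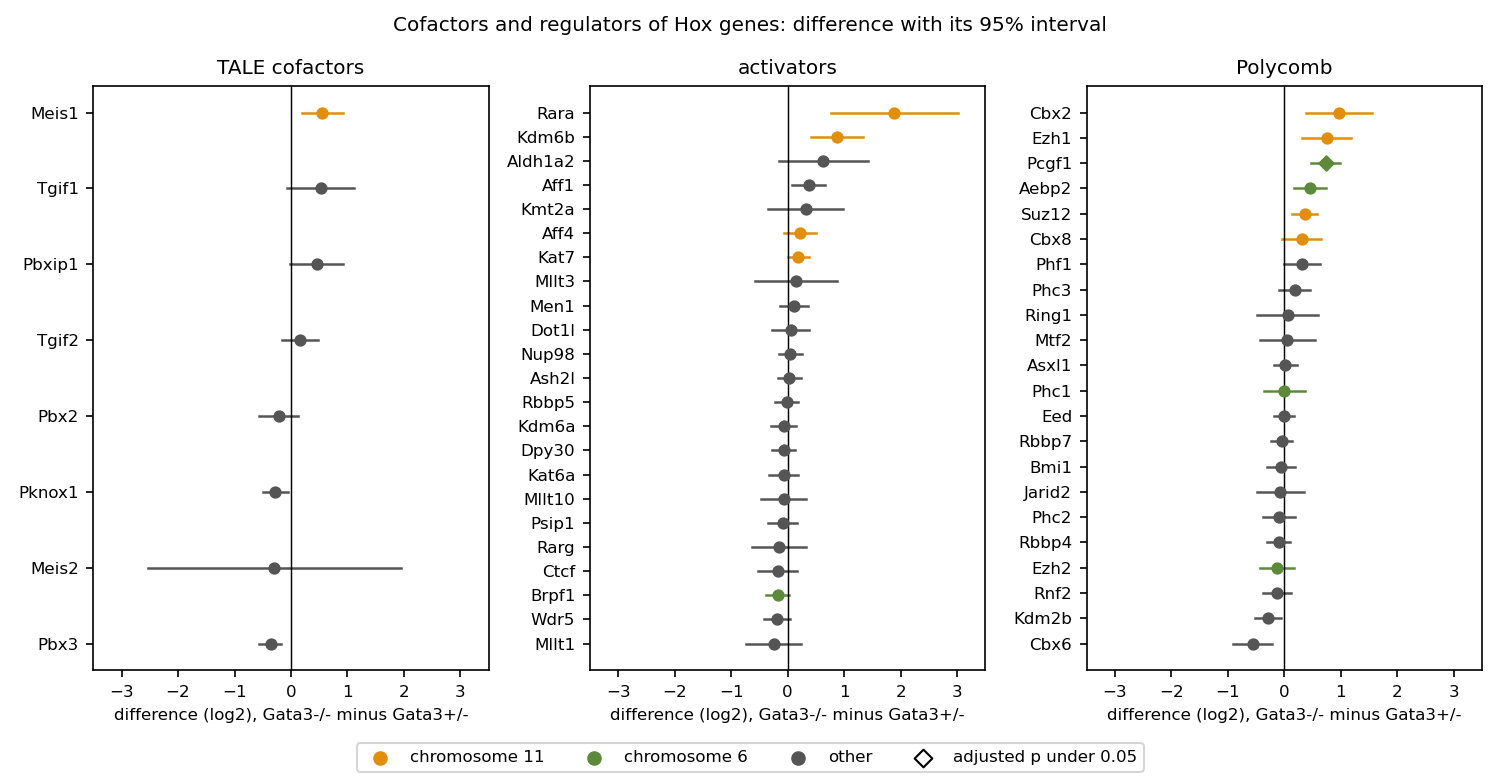
Difference (log2, Gata3-/- minus Gata3+/-) with its 95% interval for each tested TALE cofactor, activator and Polycomb gene, in order of size, coloured by chromosome. Pcgf1, the diamond, is the 1 gene with an adjusted p under 0.05, and all 9 genes of chromosome 11 (orange) lie above 0.

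Genes often expressed together with Hoxa9 in progenitors were measured in part. Of 16 named, 12 were tested, and Mecom, Gfi1, Hlf and Erg, all regulators of blood stem or progenitor cells, never reached the minimum. Kit, the stem cell factor receptor, was the 1 that passed, where 5.27% of all genes tested did. It stood at 9.98, 10.38 and 10.43 in Gata3+/- and at 11.22, 11.47 and 10.98 in Gata3-/- arrays, a rise of 0.96 (SE 0.18, limma adjusted p = 0.0477). With any 1 array left out it was not called, and its difference stayed between 0.82 and 1.08. Cd34, another surface marker of progenitors, went the other way and fell by 0.88 (adjusted p = 0.0479). Lmo2, a bridging factor of stem cell transcription complexes, had a difference of -0.45 (adjusted p = 0.0812) and Cebpa, a myeloid factor, one of -1.18 (adjusted p = 0.0829), and both had Gata3+/- arrays all higher. The median of the 12 was 0.34. Flt3, the receptor for the Flt3L in the medium, stood at 3.53, 4.28 and 5.09 and at 5.90, 5.62 and 5.36, a difference of 1.32 (adjusted p = 0.124).

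Homeobox genes outside the clusters were less uniformly low than the Hox genes, though not measured more often than genes at large. Of the 22 listed genes named on the array 11 were tested, and 10 never reached the minimum, among them Tlx1, a factor of spleen and of T-cell leukaemia, and Lhx2. Zeb1, a zinc finger and homeodomain repressor needed in T-cell development, stood at 7.83, 7.86 and 7.95 in Gata3+/- and at 8.83, 8.84 and 8.55 in Gata3-/- arrays, a rise of 0.86 (SE 0.10, limma adjusted p = 0.0303). Pou2f2, the lymphoid octamer-binding factor OCT2, stood at 7.38, 7.56 and 7.81 and at 6.73, 6.77 and 6.41, and fell by 0.95 (SE 0.15, adjusted p = 0.0383). The genotypes did not overlap in either gene. With any 1 array left out neither was called, and the differences stayed between 0.81 and 0.96 for Zeb1 and between -1.05 and -0.83 for Pou2f2. Zeb2, a relative of Zeb1 active in myeloid cells, had a difference of -0.60 (adjusted p = 0.119) and Zhx1 one of -0.29 (adjusted p = 0.18). Hhex, a homeobox factor of early blood and lymphoid progenitors, stood at 11.21 ± 0.13 and 11.13 ± 0.13.

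Myeloid markers are given as values beside these genes. Of the 16 monocyte, macrophage and dendritic cell markers 13 had negative differences, with a median of -0.38. In limma 5 passed, all lower in Gata3-/- arrays, Siglech, Ccr2, Irf8, Mpeg1 and Fcgr1, and none passed as higher. Of all genes tested 5.27% were called, 2.41% as lower. The positive differences were those of Cd68 (0.53), Itgax (0.53) and Flt3 (1.32), which did not pass. With any 1 array left out limma called no more than 7 of all probe sets. The mean level of the 16 was 11.78, 11.95 and 11.97 in Gata3+/- and 11.40, 11.30 and 11.30 in Gata3-/- arrays. The part of myeloid cells in the differences of Cebpa, Lmo2, Zeb2 and Pou2f2 was not tested.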

How the data were processed

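Labelled cRNA was measured on 6 Affymetrix arrays. The deposited values are linear intensities of 45101 probe sets, between 2.28 and 77334.92, which the authors made with GC-RMA, per the labels. GCOS is named in the submitters' processing notes, without version or settings. The log2 was taken, 64 control probe sets were left out, and nothing else was normalized. Of the rest, 34945 probe sets had 1 symbol in the platform annotation, 932 had several and 9160 none, and 34741 matched a RefSeq gene table (GRCm38.p6), where 0 symbols changed. That table gave chromosomes and gene order.

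Probe sets at a log2 of 4 (an intensity of 16) on at least 3 of 6 arrays were tested, 20102 in all, of which 878 (4.37%) passed. They were fitted by lmFit and eBayes (R version 4.3.3, limma version 3.58.1), two-sided, with Benjamini-Hochberg adjustment over all probe sets tested and a threshold of 0.05. The code was tested on simulated data. The number of arrays limits the precision. Figures used matplotlib version 3.10.9 in Python version 3.11.15.

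The members and lists were chosen with earlier results of these data known. Every Hox gene is accounted for, and of each list the called members and those with the smallest p, up to 4, are named with values. Other genes are examples chosen after their values were seen. Alternatives were no filter, a filter at log2 6, array weights, median centring, averaging the probe sets of a gene, robust eBayes with a variance trend, quantile normalization, a replicate block, arrays left out, and other minimums.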

Additional observations from a re-analysis of the deposited data

How the results depend on the processing

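In limma 0 Hox genes were called, and 0 had an unadjusted p under 0.05, under each alternative that could be run (at log2 6 none was left to test). The number of Hox genes reaching the minimum was 1 at log2 5, on any array, on all 6 arrays and after quantile normalization, and 0 at log2 6. The difference of Hoxa5 was between -0.10 and 0.01 when 1 array was left out, the positive value being that without Gata3-/- replicate 1. With the replicate block it was -0.06. Without a filter 0 Polycomb genes and 1 neighbour (Atp5g1, chosen for naming after its value was seen) were called. With the replicate block 0 Polycomb genes, 0 neighbours and 1 activator (Rara, adjusted p = 0.0499) were called. Array weights, which raised the called probe sets from 878 to 2075, gave 1 cofactor (Pbx3), 3 activators (Kdm6b, Rara and Aff1), 4 Polycomb genes, 7 neighbours and Lmo2 (adjusted p = 0.0321). Robust eBayes with a variance trend, which called 1349 probe sets in all, gave 1 activator (Kdm6b, adjusted p = 0.0473) and 4 neighbours. Averaged probe sets, with 731 of 10302 genes called, gave 3 Polycomb genes (Pcgf1, Ezh1 and Cbx6). Deviations of arrays with the same number correlated by 0.00501, 0.695 and 0.429, so that replicates 2 and 3 varied together across the genotypes. The labels state no pairing and the main fit assumed none. The replicate block takes such sharing into account, and with it limma called 498 probe sets in all. Leaving out any 1 array, or replicate 2 of both genotypes, left 0 Polycomb genes and 0 neighbours called, in fits that called 0 to 7 probe sets in all, so that the loss says nothing about single genes. Of the 6 named genes called (Pcgf1, Kit, Zeb1, Pou2f2, Snf8 and Snx11), 6 stayed called with quantile normalization, median centring and array weights and 0 without a filter, with the block or whichever 1 array was left out, and all 6 kept their sign. The median of chromosome 2 was -0.05 without replicate 2 of both genotypes, and that of chromosome 15 ranged from -0.04 to -0.01 over single arrays left out. The fit without both arrays numbered 2, all alternatives for the chromosomes, and array weights, robust eBayes and averaged probe sets for the lists were chosen after seeing the data. Levels under the minimum limit the Hox results, since neither a difference nor its absence can be read there.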
